A study of Arabidopsis thaliana with 12 samples.

Results

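The comparison described here asks what a suppressor allele of the TIR-NB-LRR gene *SADR1*, *sadr1-30.4*, does to gene expression in leaves that carry an autoactive helper immune receptor. It sets the pooled reads of *ADR1-L2 DV sadr1-30.4* leaves against those of *ADR1-L2 DV* leaves, and the members are the 15347 of 28496 genes in the table that passed a minimum on reads. Of the 12 samples in the series, 6 belong to these genotypes, 3 to each. *ADR1-L2 DV* plants carry *ADR1-L2* D484V, an activation mimic changed in the MHD motif of the receptor, expressed from its native promoter in the *adr1-l2-4* mutant. *ADR1-L2 DV sadr1-30.4* plants (*sadr1-30.4* below) carry the same transgene and the same *adr1-l2-4* allele, together with a mutation in *SADR1* recovered in a screen for mutants in which the phenotype of the activation mimic is suppressed. Any other induced mutation that this line may carry was not examined here. The remaining samples are wild-type Col-0 and *ADR1-L2 DV sadr1-26.6*, a line with another allele of the same gene (*sadr1-26.6* below), with 3 samples each, and they serve only as reference levels. All mutants are in the Col-0 background. Each sample held 2 leaves from more than a single plant, and every genotype was sampled in 3 independent experiments.

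Plant NLR proteins are intracellular immune receptors. Those with an N-terminal TIR domain (TNLs) make small nucleotide signals from NAD+, which are bound by the lipase-like proteins EDS1, PAD4 and SAG101, and these in turn engage the helper NLRs of the RNL class, ADR1, ADR1-L1, ADR1-L2 and the NRG1 proteins. RNLs form calcium-permeable channels, and their activation leads to salicylic acid synthesis, defense gene expression and cell death. In leaves, sustained immune activity is known to go with less growth, and genes of photosynthesis and of growth are commonly reduced under it.

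The deposited table gives 1 pooled read count per gene and genotype, so the values carry no error between samples, and no test between genotypes was possible. The pooled columns held 20013826 to 21277026 reads. Levels below are scaled reads, that is pooled reads divided by a size factor from the median of ratios over the 4 genotypes. Ratios are log2 of *sadr1-30.4* over *ADR1-L2 DV* after adding a pseudocount of 1, and understate changes of genes with few reads. Brackets give the exact 95% Clopper-Pearson interval of a ratio, which covers counting error only and leaves out the spread between plants and experiments. A gene was measured if its scaled reads averaged at least 50 over the 4 genotypes, and is called lower or higher in *sadr1-30.4* where the ratio reached 2-fold. Among all measured genes, 7.88% were lower and 7.64% higher, and the counts of the gene lists below are to be read against these shares. All 38 listed antenna and photosystem genes of leaf mesophyll were measured, and 10 of 12 flower, seed and root markers were under the minimum. In whole leaves, fewer cells of a type and less RNA per cell cannot be told apart.

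Promoters of 4 genes described below, chosen by hand as examples, are printed here, from the genome sequence of TAIR10.1 and the RefSeq gene starts. They are the 250 bases before the annotated start, 5′ to 3′ on the strand of the gene. *SARD1*, a transcription factor of salicylic acid synthesis, and *WRKY51*, a defense WRKY factor, were lower in *sadr1-30.4*. *COR15A* and *RD29A*, genes of cold and drought acclimation, were higher. Capitals mark, on either strand, the W-box core TTGAC bound by WRKY factors, the TGA-binding core TGACG, the G-box CACGTG, the drought and cold core CCGAC and the evening element AAATATCT, and the first and second of these overlap where TTGACG occurs. *SARD1* lies at chr1:27749249-27749498 (minus strand), *WRKY51* at chr5:25907997-25908246 (plus), *COR15A* at chr2:17712331-17712580 (minus) and *RD29A* at chr5:21240467-21240716 (plus).
SARD1: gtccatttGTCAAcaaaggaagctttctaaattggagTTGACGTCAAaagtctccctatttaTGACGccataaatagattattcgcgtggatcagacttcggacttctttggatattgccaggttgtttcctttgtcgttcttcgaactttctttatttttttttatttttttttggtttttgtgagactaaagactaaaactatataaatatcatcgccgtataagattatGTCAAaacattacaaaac
WRKY51: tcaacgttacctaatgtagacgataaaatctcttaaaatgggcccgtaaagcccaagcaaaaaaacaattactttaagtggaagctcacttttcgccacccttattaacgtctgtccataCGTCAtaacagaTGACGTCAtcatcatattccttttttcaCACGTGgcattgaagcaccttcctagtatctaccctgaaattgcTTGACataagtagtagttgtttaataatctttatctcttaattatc
COR15A: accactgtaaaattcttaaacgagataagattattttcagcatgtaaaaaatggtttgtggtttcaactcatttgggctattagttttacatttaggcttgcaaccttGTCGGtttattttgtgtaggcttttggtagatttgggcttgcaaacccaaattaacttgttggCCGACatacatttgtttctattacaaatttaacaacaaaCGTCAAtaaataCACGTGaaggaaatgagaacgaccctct
RD29A: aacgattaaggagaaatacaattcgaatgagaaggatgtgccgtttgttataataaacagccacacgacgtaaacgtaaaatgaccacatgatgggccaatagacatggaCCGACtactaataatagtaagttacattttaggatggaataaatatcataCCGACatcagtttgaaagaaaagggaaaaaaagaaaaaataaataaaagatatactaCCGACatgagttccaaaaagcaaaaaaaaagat
In these windows *SARD1* had 4 W-box cores and 3 TGA-binding cores, and *WRKY51* 1 W-box core, 3 TGA-binding cores and 1 G-box. *RD29A* had 3 drought and cold cores and no other motif, and *COR15A* had 2 of them beside 1 G-box, 1 W-box core and 1 TGA-binding core.

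Lower genes in *sadr1-30.4* included most of the measured WRKY, salicylic acid and senescence genes listed below, and higher genes most of those of aliphatic glucosinolate synthesis, carbon fixation, cold acclimation and flavonoid synthesis. Across the scalings, pseudocounts and minimums tried, the lowest list medians were 0.84 for carbon fixation, 0.85 for cold and 0.95 for flavonoid genes. These are under 2-fold, so in these lists a majority of higher genes depended on the setting. The aliphatic glucosinolate median was 1.63 at its lowest. At 2-fold, 1209 genes were lower and 1172 higher. Of the measured genes, 191 passed the minimum on reads only through *ADR1-L2 DV*, where they are high, and without these 1066 genes were lower. Another 63 passed it only through *sadr1-30.4*, and a count of higher genes without them was not taken. By at least 4-fold, 322 were lower and 215 higher, and by at least 16-fold 37 were lower and 18 higher. For 872 of the lower and 739 of the higher genes, the whole counting interval lay beyond 2-fold. The lower genes held 10.5% of all scaled reads in *ADR1-L2 DV* and 3.01% in *sadr1-30.4*, and the higher genes 6.82% and 15.1%. The middle 50% of measured genes had ratios between -0.36 and 0.39. Scaling by total reads in place of the median of ratios moves ratios by -0.24 on the log2 scale (by less where the pseudocount weighs, in genes with few reads), and then 1794 genes were lower and 721 higher, so that higher genes made up 28.7% of the calls in place of 49.2%.

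**Figure D1:**
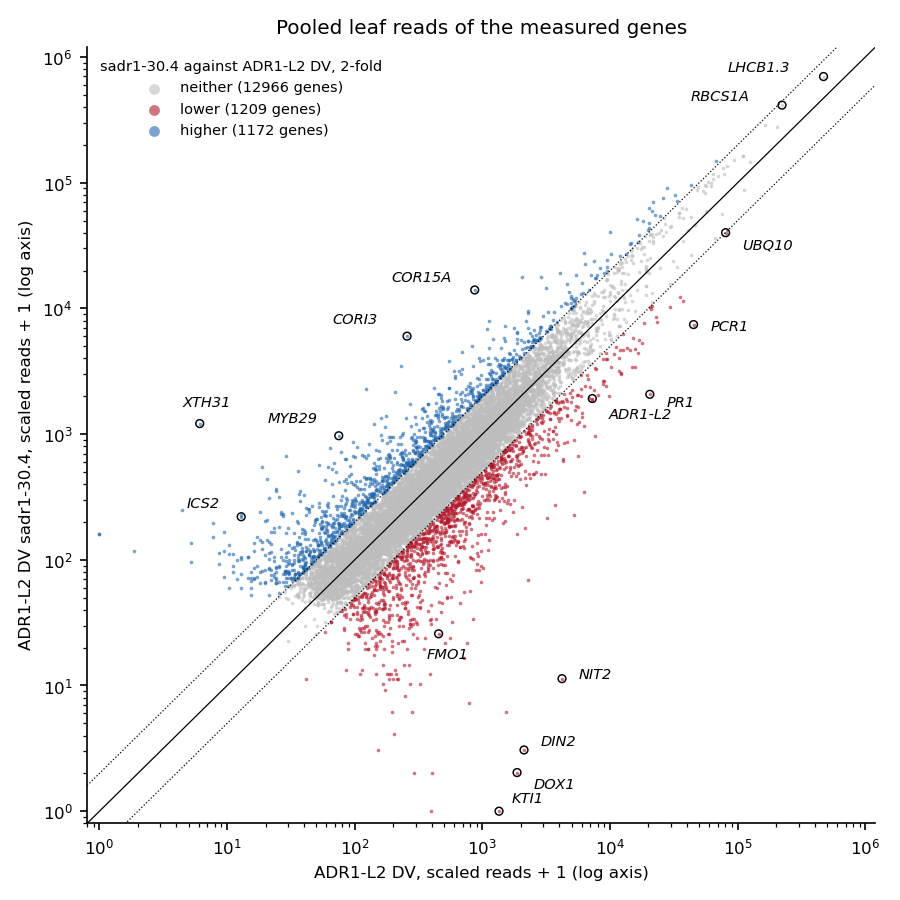
Scaled reads plus 1 of each measured gene in *ADR1-L2 DV* (x axis, log) and in *sadr1-30.4* (y axis, log), with 1 point per gene, the solid line at equal levels and dotted lines at 2-fold. The 1209 lower genes (red) lie below the lower dotted line, with *KTI1*, *DOX1*, *DIN2* and *NIT2* farthest from it, and the 1172 higher genes (blue) lie above the upper one, with *XTH31* farthest.

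Most transcripts of the helper NLRs and of the EDS1 family were lower in *sadr1-30.4*. *ADR1-L2* had 7258 scaled reads in *ADR1-L2 DV*, 1916 in *sadr1-30.4*, 1193 in Col-0 and 3511 in *sadr1-26.6*. The level was highest in *ADR1-L2 DV*, and in *sadr1-30.4* it was 3.79-fold lower than there (log2 ratio -1.92, -1.99 to -1.85) but still above Col-0, by 0.68 on the log2 scale. Reads of the transgene and of the endogenous locus are not separated in the table, and what part the lower transcript level of the activation mimic has in the other differences was not tested. Of the 11 measured genes in the helper NLR and EDS1 list, 7 were lower and 0 higher (median log2 ratio -1.42), and all 11 ratios were below 0. This list also counts the mutated gene itself and its neighbour *SADR1-P1*, which are neither helper NLRs nor EDS1 family members. Both stayed under 2-fold, with ratios of -0.76 and -0.49, so all 7 lower genes were helper NLR or EDS1 family genes.

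*EDS1* had 5323 scaled reads in *ADR1-L2 DV*, 1550.5 in *sadr1-30.4*, 1744 in Col-0 and 1957 in *sadr1-26.6*, so that *sadr1-30.4* was close to Col-0 and 3.43-fold below *ADR1-L2 DV* (log2 ratio -1.78, -1.86 to -1.70). Its partners were likewise highest in *ADR1-L2 DV*. *PAD4* had 6802 in *ADR1-L2 DV* and 1927 in *sadr1-30.4* (-1.82, -1.89 to -1.75), and *SAG101* 1192 in *ADR1-L2 DV* and 442 in *sadr1-30.4* (-1.43, -1.59 to -1.27). *AT3G48080*, annotated next to *EDS1* and a near-identical copy of it, had a ratio of -1.42, and reads could have been split between the copies.

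Among the other helper NLRs, *ADR1* had 1319 scaled reads in *ADR1-L2 DV*, 477 in *sadr1-30.4*, 494 in Col-0 and 463 in *sadr1-26.6* (log2 ratio -1.47, -1.62 to -1.32). *ADR1-L1* had 6708 in *ADR1-L2 DV* and 2732 in *sadr1-30.4* (-1.3, -1.36 to -1.23). The *NRG1* genes, which act mainly with EDS1 and SAG101 in cell death, were under 2-fold, at -0.77 for *NRG1.1* and -0.93 for *NRG1.2*. The transcript of the mutated gene was present in *sadr1-30.4*. *SADR1* (AT4G36150) had 594 scaled reads in *ADR1-L2 DV*, 350.2 in *sadr1-30.4*, 398 in Col-0 and 478 in *sadr1-26.6*, a log2 ratio of -0.76 (-0.95 to -0.57) that did not reach 2-fold, and its head-to-head neighbour *SADR1-P1* (AT4G36140) had a ratio of -0.49 (-0.64 to -0.35). The annotated 5′ ends of these neighbours overlap, and the strand setting of the counting is not given in the sources used here, so the reads there may belong to either gene. The allele is not described as one that removes the transcript, so the amount of *SADR1* transcript is no check of the label.

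The listed genes of the wider receptor repertoire shifted by smaller steps. Of 33 measured TNL and TIR genes, 4 were lower and 0 higher, and the median ratio was -0.71, with every member below 0. The 4 were *AT3G44400*, *CHS1*, *AT1G17600* and *WRR4*, a TNL known from white rust resistance. *AT3G44400* had the lowest ratio of the list, at -1.46, with 1233 in *ADR1-L2 DV* and 447 in *sadr1-30.4*. The list does not hold every TIR gene. *AT1G57630*, a TIR domain gene outside it, was lower still, with 477 in *ADR1-L2 DV* and 104 in *sadr1-30.4* (-2.18). *RPS4* and *RRS1*, which encode a paired TNL receptor, had ratios of -0.76 and -0.11, and *SNC1*, a TNL known from autoimmune mutants, had -0.70. Under scaling by total reads these values, like all others, move lower. Of 11 coiled-coil NLR genes, 2 were lower (*RFL1* at -1.39 and *AT1G12290* at -1.36) and 0 higher, with a median of -0.60. *RPS2* and *RPM1*, receptors for bacterial effectors, had ratios of -0.78 and -0.55.

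Salicylic acid synthesis and its regulators were mostly lower. Of 26 measured genes of this list, 16 were lower and 1 higher (median -1.2, with 24 ratios below 0). *CBP60G* and *SARD1* encode the transcription factors that drive isochorismate synthase. *CBP60G* had 7609.8 scaled reads in *ADR1-L2 DV*, 973 in *sadr1-30.4*, 1813 in Col-0 and 1786 in *sadr1-26.6* (log2 ratio -2.97, -3.07 to -2.87). *SARD1* had 6235 scaled reads in *ADR1-L2 DV*, 1153 in *sadr1-30.4*, 1356 in Col-0 and 2148 in *sadr1-26.6* (-2.43, -2.53 to -2.34). In both genes *ADR1-L2 DV* was the single high genotype and *sadr1-30.4* the lowest. *ICS1*, the isochorismate synthase of pathogen-induced salicylic acid, had 3719 scaled reads in *ADR1-L2 DV*, 1139 in *sadr1-30.4*, 2472 in Col-0 and 1843 in *sadr1-26.6*, and *sadr1-30.4* was below Col-0 as well, with a ratio to Col-0 of -1.12. *PBS3*, which conjugates isochorismate to glutamate, had a ratio of -2.24, and *EDS5*, the transporter that exports isochorismate from the plastid, -1.44. *DLO1* and *DMR6*, hydroxylases that inactivate salicylic acid, had ratios of -2.54 and -2.19.

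*FMO1* and *ALD1* of the pipecolic acid branch, which makes a mobile signal of systemic resistance, had their lowest levels in *sadr1-30.4*. *FMO1*, its last enzyme, had 453 scaled reads in *ADR1-L2 DV*, 24.8 in *sadr1-30.4*, 288 in Col-0 and 55.0 in *sadr1-26.6*, a 17.6-fold difference from *ADR1-L2 DV* (-4.14, -4.85 to -3.60). *ALD1*, the first enzyme, had 429 scaled reads in *ADR1-L2 DV*, 139 in *sadr1-30.4*, 696 in Col-0 and 584 in *sadr1-26.6*, and here Col-0 was above *ADR1-L2 DV*. *UGT76B1*, a glucosyltransferase that acts on salicylic acid and on N-hydroxypipecolic acid, had 73.9 scaled reads in *ADR1-L2 DV*, 45.5 in *sadr1-30.4*, 399.9 in Col-0 and 147 in *sadr1-26.6*, low in both genotypes of the comparison. The exception in the list was *ICS2*, the minor isochorismate synthase. It had 11.9 scaled reads in *ADR1-L2 DV*, 219 in *sadr1-30.4*, 197 in Col-0 and 251 in *sadr1-26.6*, so *ADR1-L2 DV* was the single low genotype (log2 ratio 4.09, 3.42 to 5.10).

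Output genes of salicylic acid were lower in 13 of 19 cases and higher in 0 (median -1.44). *PR1*, the classical marker of salicylic acid responses, had 20480.2 scaled reads in *ADR1-L2 DV*, 2071 in *sadr1-30.4*, 11920.0 in Col-0 and 6417 in *sadr1-26.6*. Its level in *sadr1-30.4* was 9.88-fold below *ADR1-L2 DV* (-3.31, -3.37 to -3.24) and, by a ratio of -2.52, also below Col-0. *PR2*, a beta-1,3-glucanase, had 37302 scaled reads in *ADR1-L2 DV*, 11527 in *sadr1-30.4*, 16774 in Col-0 and 8223 in *sadr1-26.6* (-1.69), and *PR5*, a thaumatin-like protein, had a ratio of -1.09. *SAG13*, a dehydrogenase gene induced in senescence and by salicylic acid, had the lowest ratio of the list, with 5193 in *ADR1-L2 DV* and 226 in *sadr1-30.4* (-4.51, -4.72 to -4.33). *AIG1*, a GTPase gene induced by an avirulent bacterium, had 10681 in *ADR1-L2 DV* and 1522 in *sadr1-30.4* (-2.81), and *GRX480*, a glutaredoxin that binds TGA factors, had a ratio of -2.60. The lipid-transfer genes *AZI1* and *EARLI1* had ratios of -0.94 and -0.68 to *ADR1-L2 DV* but stood above Col-0 in *sadr1-30.4*. *AZI1* had 211 scaled reads in *ADR1-L2 DV*, 109 in *sadr1-30.4*, 30.1 in Col-0 and 76.6 in *sadr1-26.6*.

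Among surface receptors and their kinases, fewer than 50% of the measured genes passed 2-fold. Of 32 pattern receptor and MAP kinase genes 15 were lower and 0 higher (median -0.93). *RLP23*, the receptor of the nlp20 peptide, had 9278 scaled reads in *ADR1-L2 DV*, 2408 in *sadr1-30.4*, 3658 in Col-0 and 2958 in *sadr1-26.6* (-1.95, -2.01 to -1.88). Its co-receptor gene *SOBIR1* had a ratio of -1.75, and the receptor-like cytoplasmic kinase *BIK1* -1.65. *FLS2*, the flagellin receptor, at -0.37, and *MPK6* at -0.14 were under 2-fold. *FRK1*, a kinase gene used as a marker of pattern responses, had 732 in *ADR1-L2 DV* and 197 in *sadr1-30.4* (-1.89), and *IOS1*, a leucine-rich repeat kinase, had the lowest ratio of the list at -2.03.

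Of 33 cysteine-rich receptor-like kinases (CRKs) 20 were lower and 2 higher (median -1.23). *CRK37* had 2056 scaled reads in *ADR1-L2 DV*, 261 in *sadr1-30.4*, 611 in Col-0 and 414 in *sadr1-26.6* (-2.97, -3.17 to -2.79). *CRK23* and *CRK36* followed, at -2.57 and -2.16. *CRK39* had 274 scaled reads in *ADR1-L2 DV*, 51.6 in *sadr1-30.4*, 233 in Col-0 and 101 in *sadr1-26.6*, where Col-0 and *ADR1-L2 DV* were both high and *sadr1-30.4* was the lowest. The exceptions were *CRK21*, with 371 in *ADR1-L2 DV* and 1741 in *sadr1-30.4* (2.23, 2.08 to 2.38), and *CRK42* at 1.05. Many CRK genes stand in arrays of similar sequence, and how reads were shared between copies is not given in the sources used here.

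WRKY factors had the lowest median of the 32 lists, at -1.78, with 21 of 25 measured genes lower and 0 higher, and 9 of 34 listed genes under the minimum. *WRKY41*, *WRKY75* and *WRKY8* passed the minimum only through *ADR1-L2 DV* and so had to be highest there, and without these 3 genes 18 of 22 were lower (median -1.74). *WRKY41* had 211 scaled reads in *ADR1-L2 DV*, 11.4 in *sadr1-30.4*, 19.7 in Col-0 and 6.47 in *sadr1-26.6* (-4.1, -5.23 to -3.35), and *WRKY75*, known from senescence and phosphate starvation, 185 in *ADR1-L2 DV* and 11.4 in *sadr1-30.4* (-3.91). *WRKY62* was at -3.21 and *WRKY8* at -3.11. These genes had few reads in *sadr1-30.4*, so the size of their ratios is loose. *WRKY51* had 1185 in *ADR1-L2 DV* and 205 in *sadr1-30.4* (-2.53, -2.76 to -2.32), *WRKY70*, a factor of salicylic acid responses, had a ratio of -1.3 and *WRKY33*, a regulator of camalexin synthesis, of -1.01. The 4 genes not called (*WRKY17*, *WRKY54*, *WRKY69* and *WRKY11*) had ratios from -0.82 to 0.17.

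Genes for calcium handling were lower in about the same share as pattern receptor genes. Of 40 measured calcium sensors, channels and pumps, 19 were lower and 1 higher (median -0.91). The vacuolar exchanger *CAX3* had 6250.4 scaled reads in *ADR1-L2 DV*, 344 in *sadr1-30.4*, 772 in Col-0 and 967 in *sadr1-26.6* (-4.18, -4.35 to -4.03). *CML41*, a calmodulin-like protein of plasmodesmata, had 1861 scaled reads in *ADR1-L2 DV*, 160.1 in *sadr1-30.4*, 74.8 in Col-0 and 361 in *sadr1-26.6* (-3.53, -3.78 to -3.30), and stayed above Col-0. The plasma membrane calcium pumps *ACA12* and *ACA13* were at -2.69 and -2.89, while their relative *ACA8* (AT5G57110) was the higher gene, with 682 in *ADR1-L2 DV* and 1916 in *sadr1-30.4* (1.49, 1.37 to 1.61). Among cyclic nucleotide-gated channels, *CNGC19*, *CNGC10* and *CNGC13* lay between -1.77 and -1.72, and *CNGC2* and *CNGC4*, whose loss gives autoimmunity, were at 0.70 and 0.85, under 2-fold.

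Senescence and sugar starvation genes held some of the steepest differences. Of 29 measured senescence and cell death genes, 22 were lower and 0 higher (median -1.56). Of these, 6 passed the minimum only through *ADR1-L2 DV*, among them *NAC055*, *NAC092*, *NYE2* and *SAG29*, and without the 6 genes 16 of 23 were lower (median -1.33). The NAC transcription factors of leaf senescence were among them. *NAC092* (also called *ORE1*) had 185 scaled reads in *ADR1-L2 DV*, 10.3 in *sadr1-30.4*, 14.5 in Col-0 and 75.5 in *sadr1-26.6* (-4.04, -5.24 to -3.26), *NAC019* 433 in *ADR1-L2 DV* and 33.0 in *sadr1-30.4* (-3.67), *NAC055* 196 in *ADR1-L2 DV* and 5.16 in *sadr1-30.4* (-5.00), and *NAP* a ratio of -3.05. *SAG29*, a sugar transporter gene of senescing leaves, had 281 scaled reads in *ADR1-L2 DV*, 5.16 in *sadr1-30.4*, 1.04 in Col-0 and 3.24 in *sadr1-26.6*, so that it was near 0 outside *ADR1-L2 DV*. *NYE1* and *NYE2*, which encode enzymes that take magnesium from chlorophyll, were at -1.31 and -3.01, and *PAO*, later in chlorophyll breakdown, at -0.32.

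Of 25 measured genes of sugar starvation and amino acid breakdown, 15 were lower and 1 higher (median -1.15). *DIN2*, a beta-glucosidase of darkened leaves, had 2116 scaled reads in *ADR1-L2 DV*, 2.07 in *sadr1-30.4*, 1.04 in Col-0 and 1.08 in *sadr1-26.6* (-9.43, -13.05 to -8.15, from 2 reads in *sadr1-30.4*). *LKR/SDH*, which breaks down lysine, had 2281 scaled reads in *ADR1-L2 DV*, 68.2 in *sadr1-30.4*, 72.7 in Col-0 and 387 in *sadr1-26.6* (-5.04, -5.44 to -4.71). *ASN1*, the asparagine synthetase of starved leaves, had 3729 scaled reads in *ADR1-L2 DV*, 271 in *sadr1-30.4*, 383 in Col-0 and 1742 in *sadr1-26.6* (-3.78). All 3 genes were highest in *ADR1-L2 DV*, *DIN2* passed the minimum only through it, and *sadr1-26.6* lay between it and *sadr1-30.4* for *LKR/SDH* and *ASN1*. *ERD5*, the proline dehydrogenase, was at -3.11, and the higher gene was *GDH3* at 1.3. Among 18 autophagy genes 4 were lower and 0 higher (median -0.47), and all 4 encode the ATG8 protein that coats autophagosomes, with *ATG8E* lowest at -1.78 (827 in *ADR1-L2 DV* and 241 in *sadr1-30.4*).

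Oxidative stress and camalexin genes were mixed. Of 22 oxidative stress and glutathione transferase genes, 10 were lower and 2 higher (median -0.85), and without *DOX1* and *AOX1D*, which passed the minimum only through *ADR1-L2 DV*, 8 of 20 were lower. *DOX1*, an alpha-dioxygenase of fatty acids, had 1867 in *ADR1-L2 DV* and 1.03 in *sadr1-30.4* (-9.84, -16.12 to -8.34, from 1 read in *sadr1-30.4*), and *AOX1D*, an alternative oxidase, had 246 scaled reads in *ADR1-L2 DV*, 7.23 in *sadr1-30.4*, 68.6 in Col-0 and 32.4 in *sadr1-26.6* (-4.91). *RBOHF*, an NADPH oxidase, was at -1.84, and *RBOHD* at -0.32. The higher genes were the iron superoxide dismutase *FSD1* (1.35) and the photorespiratory catalase *CAT2* (AT4G35090, 1.13). Of 17 camalexin and indole glucosinolate genes 5 were lower and 1 higher (median -0.51). *PAD3*, the last enzyme of camalexin synthesis, had 322 scaled reads in *ADR1-L2 DV*, 96.1 in *sadr1-30.4*, 646 in Col-0 and 223 in *sadr1-26.6*, so that Col-0 was the highest genotype and *sadr1-30.4* the lowest (-1.73 to *ADR1-L2 DV*, -2.74 to Col-0). *F6'H1*, which makes scopoletin, had the same order, with 220.0 scaled reads in *ADR1-L2 DV*, 47.5 in *sadr1-30.4*, 337 in Col-0 and 183 in *sadr1-26.6*. The higher gene was *MYB34*, a regulator of indole glucosinolates, with 130.0 in *ADR1-L2 DV* and 444 in *sadr1-30.4* (1.76, 1.5 to 2.05).

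The 12 lowest ratios, among genes with at least 500 scaled reads in either genotype, were those of *DIN2*, *DOX1* and *LKR/SDH* and of 9 genes in none of the lists. *KTI1*, a trypsin inhibitor that restrains cell death, had 1587 reads in *ADR1-L2 DV*, 0 in *sadr1-30.4*, 13 in Col-0 and 4 in *sadr1-26.6*. Against a floor of 3 reads over the pooled genotype, it was at least 435-fold lower in *sadr1-30.4*. *NIT2*, a nitrilase, had 4201 scaled reads in *ADR1-L2 DV*, 10.3 in *sadr1-30.4*, 20.8 in Col-0 and 18.3 in *sadr1-26.6* (-8.53, -9.73 to -7.79). *AT2G44240*, annotated as NEP-interacting protein, had 1538 scaled reads in *ADR1-L2 DV*, 5.16 in *sadr1-30.4*, 123 in Col-0 and 58.3 in *sadr1-26.6* (-7.96), and was lower in *sadr1-30.4* than in the other genotypes. The remaining 6 (*AT5G39520*, *AT1G68620*, *CCOAMT*, *CHX17*, *LTL1* and *AT4G29020*) had ratios from -6.77 to -4.54. *OSM34*, an osmotin of the PR5 family with 463 reads in *ADR1-L2 DV* and 0 in every other genotype, was at least 127-fold lower, a gene picked after its values were seen. *KTI1*, *NIT2*, *DIN2*, *DOX1*, *AT5G39520*, *CCOAMT*, *LTL1*, *AT4G29020* and *OSM34* passed the minimum on reads only through *ADR1-L2 DV*. Their low ratios follow in part from that minimum.

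In numbers of reads the largest differences downwards were those of abundant transcripts. *PCR1*, a membrane protein of cadmium resistance, had 45084 scaled reads in *ADR1-L2 DV*, 7429.9 in *sadr1-30.4*, 17785 in Col-0 and 16506 in *sadr1-26.6* (-2.60, -2.64 to -2.57). *AT1G35710*, a leucine-rich repeat kinase, had 35337 in *ADR1-L2 DV* and 12384 in *sadr1-30.4* (-1.51). *UBQ10*, a polyubiquitin gene often used as a reference, had 80376 scaled reads in *ADR1-L2 DV*, 39999 in *sadr1-30.4*, 41043 in Col-0 and 43057 in *sadr1-26.6*, and was the single lower gene of 12 reference genes (-1.01, -1.02 to -0.99). The other 11, among them *ACT2*, *PP2AA3* and *YLS8*, lay between -0.16 and 0.44. *CAT3* (AT1G20620), a catalase, and *AT2G25510* were also among the 6 largest in reads, with ratios of -0.37 and -0.89 that are under 2-fold.

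A further group was lower in *sadr1-30.4* although *ADR1-L2 DV* was close to Col-0. There were 56 lower genes whose levels in Col-0 and *ADR1-L2 DV* were within 25% of each other (the greater at most 25% above the lesser), and 8 such higher genes. How many of all measured genes had such levels was not counted, so these numbers cannot be read against the shares of all measured genes. Some genes of protein folding in the endoplasmic reticulum, a route that surface receptors also take, were of this kind. Of 22 ER folding and NLR chaperone genes, 8 were lower and 0 higher (median -0.83), and the median ratio of *sadr1-30.4* to Col-0 was -0.82. Summed over the list, scaled reads were 115309.7 in *ADR1-L2 DV*, 63664 in *sadr1-30.4*, 109209.6 in Col-0 and 64406 in *sadr1-26.6*, so both suppressor lines were low. *BIP2*, the HSP70 chaperone of the lumen, had 9526 scaled reads in *ADR1-L2 DV*, 3984 in *sadr1-30.4*, 9441 in Col-0 and 4772 in *sadr1-26.6* (-1.26, -1.31 to -1.20). *PDIL1-2*, a disulfide isomerase, had 4179 scaled reads in *ADR1-L2 DV*, 1839.7 in *sadr1-30.4*, 4489.6 in Col-0 and 2209 in *sadr1-26.6* (-1.18), and *BIP3* and *CNX1* were at -1.34 and -1.08. *CRT3*, a calreticulin needed for the receptor EFR, and the co-chaperone gene *SGT1A* were lower genes with *ADR1-L2 DV* well above Col-0. *CRT3* had 11952 scaled reads in *ADR1-L2 DV*, 4676 in *sadr1-30.4*, 6410.3 in Col-0 and 5134 in *sadr1-26.6*. *BIP1* and *BIP2* are close copies, and reads may be split between them.

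Among genes with Col-0 within 25% of *ADR1-L2 DV* and at least 500 scaled reads in either genotype of the comparison, the 5 lowest ratios were those of *GSTF7*, *GSTF2*, *EDS5* and the neighbours *SVL2* and *SNC4*. *GSTF2*, a glutathione transferase, had 15090.4 scaled reads in *ADR1-L2 DV*, 5849.6 in *sadr1-30.4*, 18007 in Col-0 and 7796 in *sadr1-26.6* (-1.37, -1.41 to -1.32), and *GSTF7* had 4567 scaled reads in *ADR1-L2 DV*, 1379 in *sadr1-30.4*, 4259 in Col-0 and 1716 in *sadr1-26.6* (-1.73). These are again low in both suppressor lines. *SVL2*, a glycerophosphodiester phosphodiesterase-like gene, had 16782 scaled reads in *ADR1-L2 DV*, 5587 in *sadr1-30.4*, 15632 in Col-0 and 14588 in *sadr1-26.6* (-1.59), and *SNC4*, the receptor-like kinase gene beside it, 3924 scaled reads in *ADR1-L2 DV*, 1495 in *sadr1-30.4*, 3233 in Col-0 and 3413 in *sadr1-26.6* (-1.39). Here *sadr1-26.6* stayed with Col-0 and *sadr1-30.4* alone was low. Under the same minimum of 500, the 5 highest ratios were those of *AT2G43530*, *PME44*, *AT2G10940*, *CER3* and *AT1G55260*, with ratios from 0.92 to 1.12, of which *AT2G43530* alone reached 2-fold.

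**Figure D2:**
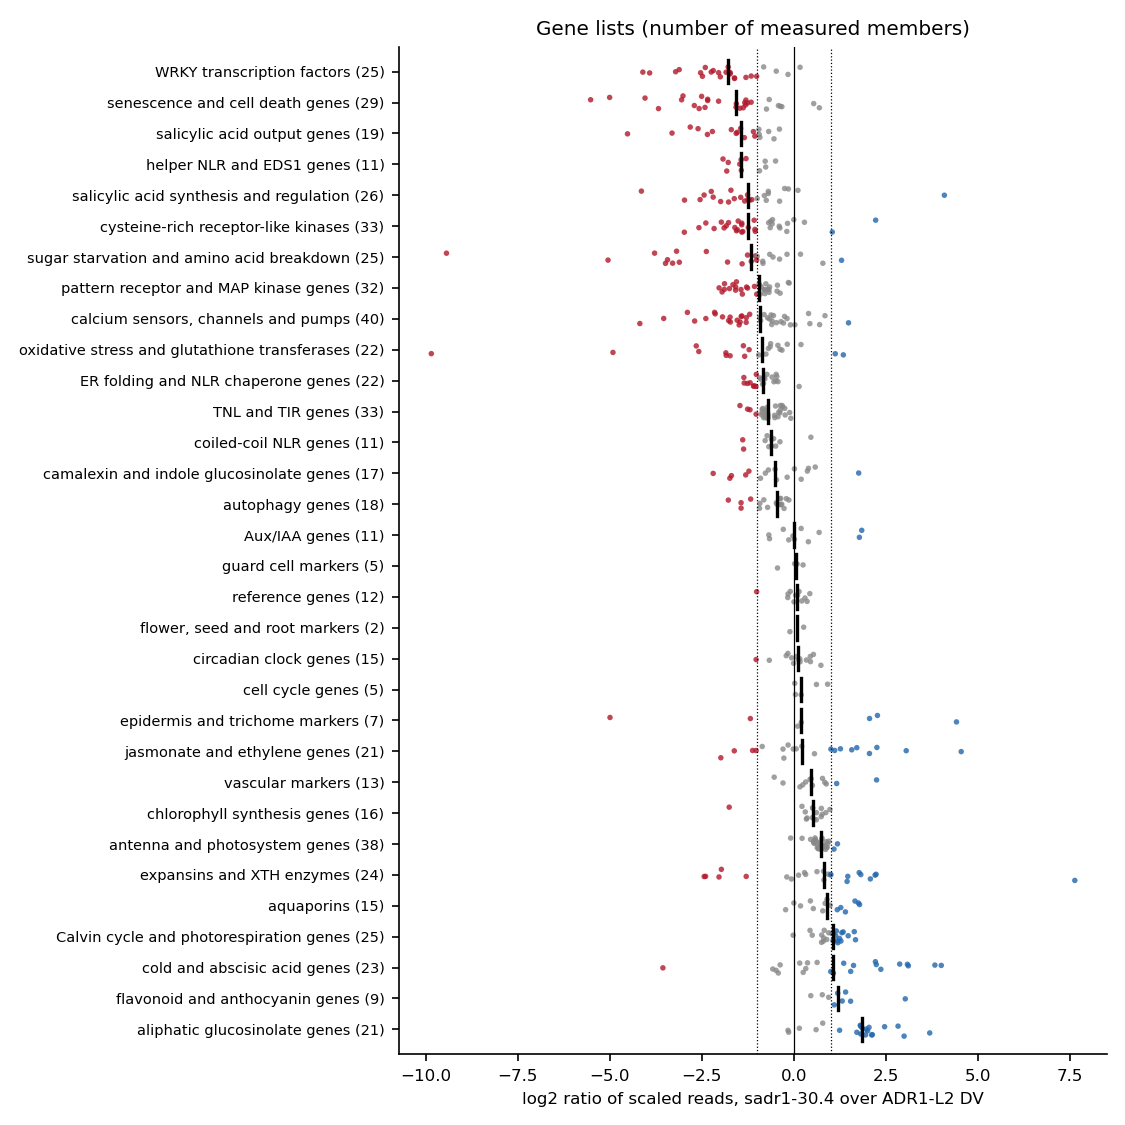
Log2 ratio of scaled reads, *sadr1-30.4* over *ADR1-L2 DV*, of the measured members of 32 gene lists, with 1 point per gene (red lower, blue higher, grey neither), black bars at list medians and dotted lines at 2-fold. Medians run from -1.78 for WRKY factors to 1.86 for aliphatic glucosinolate genes.

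Aliphatic glucosinolate genes had the highest median of the 32 lists. These methionine-derived compounds deter chewing insects. Of 21 measured genes 16 were higher and 0 lower (median 1.86). *MYB29*, a transcription factor that controls the pathway, had the highest ratio. It had 73.9 scaled reads in *ADR1-L2 DV*, 969 in *sadr1-30.4*, 798 in Col-0 and 543 in *sadr1-26.6* (3.69, 3.39 to 4.05), and its relative *MYB28* was at 2.12. The side-chain elongation genes *MAM1* and *BCAT4* were at 1.81 and 1.95, the core enzymes *CYP79F1* and *CYP83A1* at 1.97 and 1.86, and *FMO-GS-OX3*, which oxidises the side chain, at 3.00 (174 in *ADR1-L2 DV* and 1399 in *sadr1-30.4*). *CYP79F2*, a close copy of *CYP79F1*, and *FMO-GS-OX2* were at -0.16 and -0.14. The list median relative to Col-0 was 0.28.

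In the main scaling, carbon fixation genes were mostly higher, while few genes of light harvesting reached 2-fold. Of 25 Calvin cycle and photorespiration genes 15 were higher and 0 lower (median 1.08). *FBA1*, a plastid aldolase, had 21452 scaled reads in *ADR1-L2 DV*, 59813 in *sadr1-30.4*, 48631 in Col-0 and 53775 in *sadr1-26.6* (1.48, 1.46 to 1.5), and *SBPASE*, the sedoheptulose bisphosphatase, had 9543 scaled reads in *ADR1-L2 DV*, 24221 in *sadr1-30.4*, 24237 in Col-0 and 22012 in *sadr1-26.6* (1.34). The small subunit genes of Rubisco differed among themselves, *RBCS1A* at 0.90, *RBCS3B* at 1.14, *RBCS1B* at 1.65 and *RBCS2B* at 1.68. They are near-identical copies, so the split of reads between them is uncertain. Carbonic anhydrase *CA1*, outside the lists, had 28115 scaled reads in *ADR1-L2 DV*, 89884 in *sadr1-30.4*, 76804 in Col-0 and 62154 in *sadr1-26.6* (1.68, 1.66 to 1.70).

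Of 38 antenna and photosystem genes, 2 were higher and 0 lower (median 0.73), and 37 ratios were above 0, of which the lowest, *LHCB1.1* at 0.23, turned negative under scaling by total reads. The higher genes were *PSBS*, needed to dissipate excess light, with 14254 scaled reads in *ADR1-L2 DV*, 32489 in *sadr1-30.4*, 31949 in Col-0 and 28569 in *sadr1-26.6* (1.19), and the plastocyanin gene *PETE2* (1.09). In reads the difference of *LHCB1.3*, a major antenna protein and the gene with most reads in the list, was the largest of all measured genes, with 470167 scaled reads in *ADR1-L2 DV*, 698599.5 in *sadr1-30.4*, 688089.5 in Col-0 and 758839 in *sadr1-26.6* (0.57, 0.57 to 0.58). *LHCB1* genes are near-identical copies too. The summed scaled reads of the list were 2400585 in *ADR1-L2 DV*, 3761861 in *sadr1-30.4*, 3727719 in Col-0 and 4100276 in *sadr1-26.6*. Of 16 chlorophyll synthesis genes 1 was lower and 0 higher (median 0.54). The lower gene was *PORA*, the protochlorophyllide oxidoreductase of dark-grown seedlings, with 406 scaled reads in *ADR1-L2 DV*, 119.8 in *sadr1-30.4*, 97.6 in Col-0 and 504 in *sadr1-26.6*, where *sadr1-26.6* stayed high. *PORB* and *PORC* were both at 0.62.

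Cold and abscisic acid genes were higher in 13 of 23 cases and lower in 1 (median 1.08). *COR15A*, which encodes a protein that shields plastid membranes in the cold, had 869 scaled reads in *ADR1-L2 DV*, 14005 in *sadr1-30.4*, 15502 in Col-0 and 11783 in *sadr1-26.6* (4.01, 3.92 to 4.1). *RD29A* had 2039.9 scaled reads in *ADR1-L2 DV*, 17668 in *sadr1-30.4*, 17900.2 in Col-0 and 20255 in *sadr1-26.6* (3.11, 3.05 to 3.18). *GOLS3*, a galactinol synthase, had 34.8 scaled reads in *ADR1-L2 DV*, 510.3 in *sadr1-30.4*, 709 in Col-0 and 742 in *sadr1-26.6* (3.83), and *KIN1* and *KIN2* were at 3.09 and 2.24. In these genes *ADR1-L2 DV* was the single low genotype. *DREB1A*, one of the factors that bind the drought and cold core, was at 2.37, and *DREB1C* at 1.08. Of the genes not called, *RAB18* was at 0.33 and *RD29B* at -0.48. *HAI1*, a phosphatase of abscisic acid signalling, was the lower gene, with 387 scaled reads in *ADR1-L2 DV*, 32 in *sadr1-30.4*, 72.7 in Col-0 and 129 in *sadr1-26.6* (-3.55, -4.17 to -3.07).

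Of 9 measured flavonoid and anthocyanin genes, 6 were higher and 0 lower (median 1.19). *CHS*, chalcone synthase, had 1642 scaled reads in *ADR1-L2 DV*, 4363 in *sadr1-30.4*, 3902 in Col-0 and 1792 in *sadr1-26.6* (1.41, 1.33 to 1.49). In this gene *sadr1-26.6* stayed near *ADR1-L2 DV* and *sadr1-30.4* was near Col-0, and *CHIL*, a chalcone isomerase-like gene, and *TT5*, the isomerase, were at 1.32 and 1.55. The other 8 listed genes, among them *DFR* and *LDOX* of anthocyanin synthesis, were under the minimum on reads.

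Jasmonate and ethylene genes went both ways. Of 21 measured, 9 were higher and 4 lower, and the median of 0.22 turned negative under scaling by total reads and with no minimum on reads. Enzymes of jasmonate synthesis and genes induced by jasmonate were among the higher ones. *AOS*, allene oxide synthase, had 2284 scaled reads in *ADR1-L2 DV*, 9509 in *sadr1-30.4*, 7317 in Col-0 and 7093 in *sadr1-26.6* (2.06, 2.00 to 2.12). *CORI3*, a cystine lyase gene, had 256 scaled reads in *ADR1-L2 DV*, 6012 in *sadr1-30.4*, 4028 in Col-0 and 4188 in *sadr1-26.6* (4.55, 4.39 to 4.73). *VSP2*, a vegetative storage protein, had 199 scaled reads in *ADR1-L2 DV*, 955 in *sadr1-30.4*, 326 in Col-0 and 1422 in *sadr1-26.6* (2.26), above Col-0 in both suppressor lines, and *LOX2* was at 1.11. The 4 lower genes were *PR4*, a chitin-binding protein (-1.98), *CYP94C1*, which oxidises active jasmonate (-1.61), the repressor *JAZ1* (-1.12) and *AOC3* (-1.02). *AOC3* went against its close relatives *AOC1*, *AOC2* and *AOC4*, at 1.71, 1.27 and 1.01.

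Growth genes were higher in part. Of 24 expansins and XTH enzymes, which loosen and remodel the cell wall, 9 were higher and 5 lower (median 0.81). The lower gene *XTH16* passed the minimum only through *ADR1-L2 DV*, and without it 9 of 23 were higher and 4 lower (median 0.82). *XTH31* had the highest ratio of all measured genes with at least 500 scaled reads in either genotype, with 5.10 scaled reads in *ADR1-L2 DV*, 1212 in *sadr1-30.4*, 1443 in Col-0 and 741 in *sadr1-26.6* (7.64, 6.77 to 9.34). *XTH32*, *EXPA11* and *XTH7* were at 2.24, 2.21 and 2.08. All 5 lower genes were XTH enzymes, and among them *XTH24* had 4569 scaled reads in *ADR1-L2 DV*, 869 in *sadr1-30.4*, 715 in Col-0 and 2560.5 in *sadr1-26.6* (-2.39, -2.50 to -2.29), and *XTH16*, *XTH25*, *XTH22* and *XTH9* lay between -2.43 and -1.29. *XTH10*, a lower gene outside the list, was at -3.86. Of 15 aquaporins 6 were higher and 0 lower (median 0.90), with *PIP2-1* at 7543 scaled reads in *ADR1-L2 DV*, 23912 in *sadr1-30.4*, 17767 in Col-0 and 22004 in *sadr1-26.6* (1.66, 1.63 to 1.70) and *TIP2-2* at 1.79. Of 11 Aux/IAA genes, repressors of auxin responses, *IAA3* and *IAA17* were higher (1.78 and 1.85) and 0 were lower, and the list median of 0.02 changed sign under scaling by total reads and with no minimum on reads.

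Few cell cycle, clock and guard cell genes reached 2-fold. None of 5 measured cell cycle genes passed 2-fold, and 11 more were under the minimum, including *CYCB1-1* and *KNOLLE* of dividing cells. Of 15 clock genes *RVE1* was lower (-1.02) and 0 were higher. Medians of the cell cycle, clock, reference, guard cell, epidermis and trichome, and flower, seed and root lists were between 0.07 and 0.20, and each of these signs turned under scaling by total reads. None of 5 guard cell markers passed 2-fold, and their summed scaled reads were 1087 in *ADR1-L2 DV*, 983 in *sadr1-30.4*, 1036 in Col-0 and 1171 in *sadr1-26.6*. Of 13 vascular markers 2 were higher and 0 lower (median 0.47), namely the sulfate transporter *SULTR2-1* (2.25) and the sieve element gene *SEOR1* (1.17), and their summed scaled reads were 9812 in *ADR1-L2 DV*, 14793 in *sadr1-30.4*, 16729.5 in Col-0 and 15277 in *sadr1-26.6*. The 7 measured epidermis and trichome markers split into 3 higher and 2 lower, with *GIS*, a trichome regulator, at 19.5 scaled reads in *ADR1-L2 DV*, 439 in *sadr1-30.4*, 363 in Col-0 and 224 in *sadr1-26.6* (4.42, 3.88 to 5.16) and *PDF1*, a gene of the young epidermis, at 326 scaled reads in *ADR1-L2 DV*, 9.30 in *sadr1-30.4*, 16.6 in Col-0 and 5.40 in *sadr1-26.6* (-4.99, -6.27 to -4.19). Both lower genes, *PDF1* and *GL2*, passed the minimum only through *ADR1-L2 DV*. Without them 3 of 5 epidermis and trichome markers were higher and 0 lower, and the median was 2.06. *CER1*, an enzyme of wax alkanes, was at 2.27. The part of cell type makeup in the lists above was not tested.

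The 12 highest ratios, among genes with at least 500 scaled reads in either genotype, were those of *XTH31*, *CORI3*, *COR15A*, *GOLS3* and *MYB29* and 7 others. *MES18*, a methyl esterase, had 17.8 scaled reads in *ADR1-L2 DV*, 549.5 in *sadr1-30.4*, 295 in Col-0 and 63.7 in *sadr1-26.6* (4.87, 4.32 to 5.65). *AT3G24460*, a Serinc-domain protein, had 28.0 scaled reads in *ADR1-L2 DV*, 672 in *sadr1-30.4*, 411 in Col-0 and 149 in *sadr1-26.6* (4.54). For both, *sadr1-26.6* was between *ADR1-L2 DV* and Col-0, and *sadr1-30.4* was the highest genotype. *AT2G27420*, a cysteine proteinase, was at 4.21 and *TBL26*, of a family that acetylates wall polysaccharides, had 231 scaled reads in *ADR1-L2 DV*, 3477 in *sadr1-30.4*, 1628 in Col-0 and 2604 in *sadr1-26.6* (3.91, 3.73 to 4.09). *AT1G27030*, *AT4G21650* and *AT3G48460* lay between 3.37 and 3.59.

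**Figure D3:**
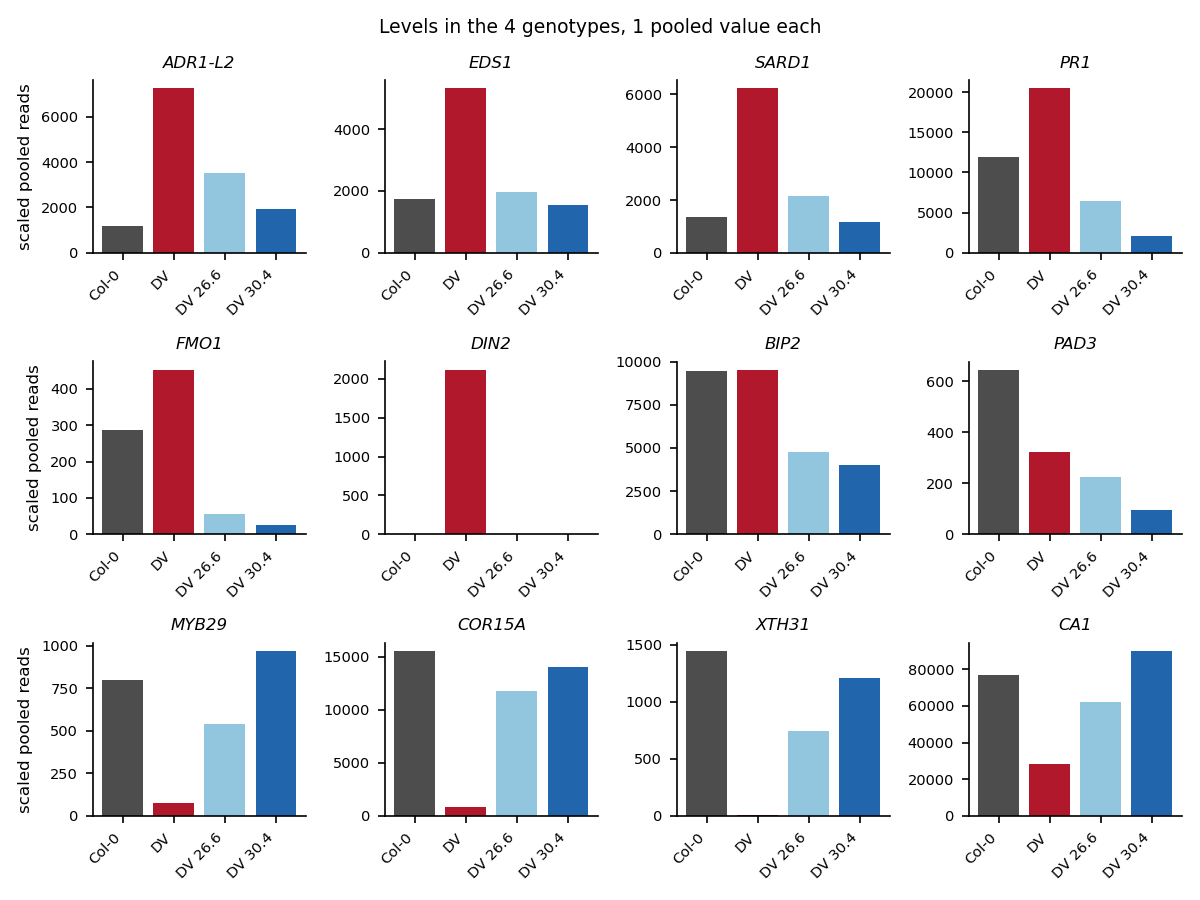
Scaled pooled reads (y axes, from 0) of 12 genes in Col-0, *ADR1-L2 DV* (DV), *sadr1-26.6* and *sadr1-30.4*, with 1 pooled value per bar and no error available. *ADR1-L2 DV* is the single high genotype for *EDS1*, *SARD1* and *DIN2* and the single low one for *MYB29*, *COR15A*, *XTH31* and *CA1*, whereas *BIP2* is high in Col-0 and *ADR1-L2 DV* and *PAD3* is highest in Col-0.

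Relative to Col-0, most higher genes were within 1.5-fold of the wild-type level in *sadr1-30.4*, while lower genes were less close and mostly below it. Of the 1209 lower genes, 1181 had been above Col-0 in *ADR1-L2 DV*, and of the 1172 higher genes 1165 had been below it. In *sadr1-30.4*, 797 of the lower genes (65.9%) and 1079 of the higher genes (92.1%) were within 1.5-fold of Col-0. The share of all measured genes within 1.5-fold of Col-0 was not taken. The median ratio of *sadr1-30.4* to Col-0 was -0.38 for the lower genes, with quartiles of -0.69 and -0.12, and 0.18 for the higher genes, with quartiles of 0.04 and 0.33. Over all measured genes, *ADR1-L2 DV* was above Col-0 for 50.7% and below it for 49.3%. The reads of *ADR1-L2 DV* and of *sadr1-30.4* chose the genes and enter these comparisons with Col-0, so the values are a description. Of the lower genes, 155 were also at least 2-fold below Col-0 in *sadr1-30.4*, and of these 138 were below Col-0 in *sadr1-26.6* as well, 47 of them by at least 2-fold. The Col-0 reads helped choose these genes and enter the comparison with *sadr1-26.6* too, and the share over all measured genes was not taken. Of the higher genes, 26 were also at least 2-fold above Col-0. Over all measured genes, 179 were 2-fold lower and 73 higher than Col-0 in *sadr1-30.4*, beside 916 and 827 in *ADR1-L2 DV*. The 155 genes above are among the 179, so most genes 2-fold below Col-0 in *sadr1-30.4* were lower genes.

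**Figure D4:**
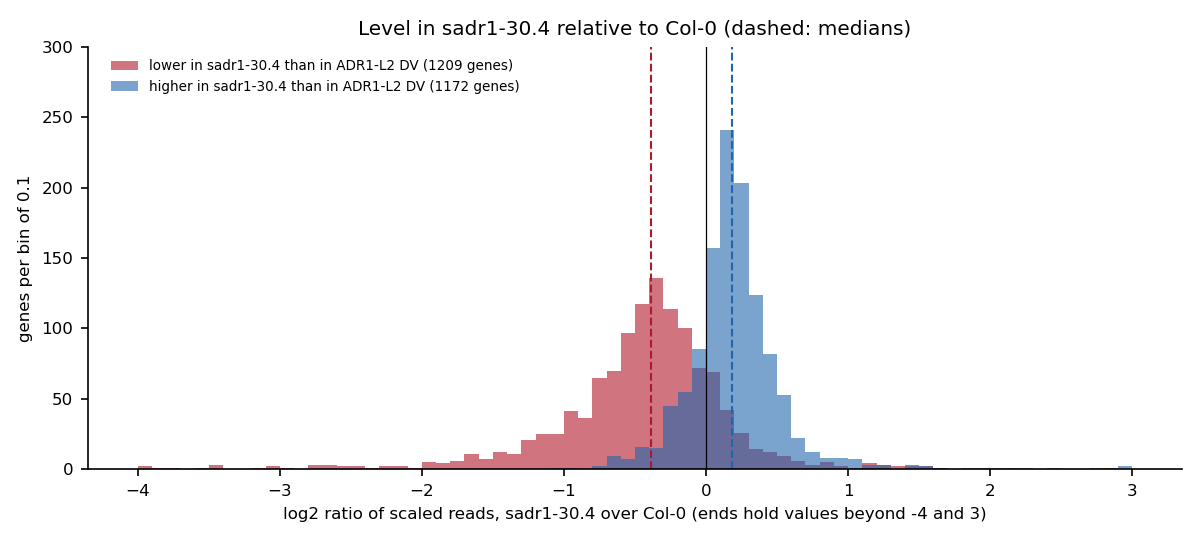
Numbers of genes (y axis, bins of 0.1) by the log2 ratio of *sadr1-30.4* over Col-0 (x axis) for the 1209 genes lower (red) and the 1172 genes higher (blue) in *sadr1-30.4* than in *ADR1-L2 DV*, with dashed lines at the medians. The lower genes centre at -0.38 with a tail to the left, and the higher genes at 0.18.

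The motifs printed above were counted in the 250 bases before the start of the 15290 measured genes that have such a window. The W-box core stood in 44.6% of all windows, in 56.9% of those of lower genes and 64.5% of those lower by 4-fold, and in 38.9% of those of higher genes. The TGA-binding core stood in 19.6% of all, 24.4% of lower and 18.5% of higher windows. The G-box differed little, at 7.60%, 7.65% and 8.13%. The drought and cold core was in 13.4% of all windows, in 9.31% of lower and 13.9% of higher ones, and in 18.2% of those higher by 4-fold. The evening element, known from clock and cold genes, was in 5.11% of all windows, 4.16% of lower ones, 8.21% of higher ones and 13.1% of those higher by 4-fold. Among the lists, 18 of 25 WRKY windows and 12 of 19 windows of salicylic acid output genes had a W-box core, and 8 of 23 windows of cold and abscisic acid genes had a drought and cold core. The salicylic acid synthesis list was near the share of all windows for the W-box core, with 12 of 26. Reference genes had the W-box core in 7 of 12 windows and the drought and cold core in 4 of 12. Aux/IAA genes had the drought and cold core in 5 of 11. A match is a run of letters and no proof of a binding site, and these shares were not tested.

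**Figure D5:**
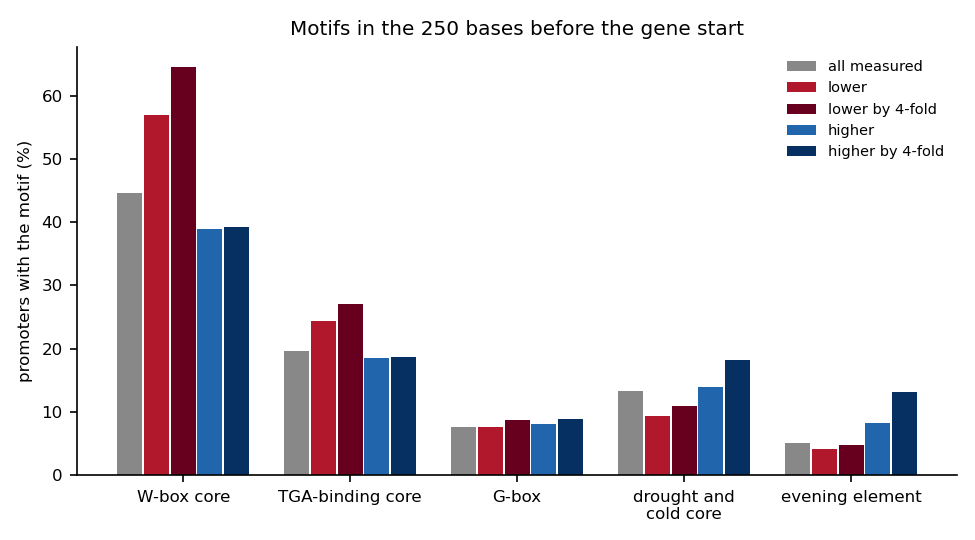
Percent of promoter windows (y axis) that hold each of 5 motifs on either strand, for all measured genes (grey), lower genes (red, and dark red where lower by 4-fold) and higher genes (blue, and dark blue where higher by 4-fold). The W-box core is most frequent in genes lower by 4-fold, at 64.5% beside 44.6% of all, and the evening element in genes higher by 4-fold, at 13.1% beside 5.11%.

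By place, the calls were spread over the genome. On the 5 nuclear chromosomes the share of lower genes ran from 7.12% to 8.36% and that of higher genes from 7.26% to 8.48%. Within 1 Mb either side of *SADR1*, 32 of 364 measured genes were lower and 32 higher. By annotated length, genes in the shortest quartile were lower in 11.1% and higher in 10.01% of cases, and those in the longest in 5.34% and 5.76%, so both directions were more frequent in short genes. By mean scaled reads, genes in the quartile with fewest reads were lower in 10.6% and higher in 9.62% of cases. Those in the quartile with most reads were lower in 6.25% and higher in 9.28%. What part gene length or read depth has in the calls was not tested.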

How the data were processed

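Leaf mRNA of 12 samples in 4 genotypes was sequenced, and samples were grouped by their titles. The authors deposited 1 table with a whole-number value per gene and genotype, headed RPKM. The deposited values are taken as read counts that the authors pooled over 3 samples, because they are whole, sum to different totals per genotype and, multiplied by gene length, sum far above what RPKM allows. The sources used here do not give how they were pooled, the aligner, the counting tool or the strand setting. The submitters' notes name TAIR10. The table's log2 fold changes and FDR values of each mutant against Col-0 were not used.

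Counts were scaled by median-of-ratios size factors over the 4 columns (Python 3.11.15, numpy 2.4.6, pandas 2.3.3, scipy 1.17.1). Ratios, intervals and the 2-fold rule are as given in the report, and the steps were tested on simulated data. Gene names came from RefSeq of TAIR10.1, which lists 28009 of the AGI codes, and from the study. The 32 lists hold 732 genes, of which 731 are in the table. The members, lists and tests were chosen with earlier results of these data known. The rule names 11 genes always, the 12 lowest and 12 highest ratios (at least 500 scaled reads in the higher genotype), the 6 largest by difference of scaled reads, up to 4 genes per list in its main direction and 2 in the other, and, again from 500 scaled reads, the 5 lowest and 5 highest ratios with Col-0 within 25% of *ADR1-L2 DV*. Other genes were picked after their values were seen. Of 191 genes that passed the minimum only through *ADR1-L2 DV*, 143 are lower genes, and counts without them were added after seeing the data. Alternatives were scaling by total reads, over 2 genotypes or by edgeR 4.0.16 TMM (R 4.3.3), pseudocounts of 0.5 and 5, other minimums and other folds. Depth limits the ratios: the median half-width of the interval was 0.491 (log2) at a mean of 50 to 100 scaled reads and 0.11 at 1000 to 2000.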

Additional observations from a re-analysis of the deposited data

How the results depend on the processing

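No paired analysis was possible because the table holds 1 pooled value per genotype, and for the same reason no replicate could be left out in turn. The counts of lower and higher genes were 1209 and 1172. They stayed within 1.5 times of these with the median of ratios over the 2 genotypes (1211 and 1167), edgeR TMM scaling (1208 and 1176), pseudocounts of 0.5 (1214 and 1177) and 5 (1178 and 1126), and, for lower genes, a whole interval beyond 2-fold (872). Scaling by total reads gave 1794 lower and 721 higher genes, no minimum on reads 2593 and 2539, a minimum of 200 scaled reads 754 and 766, a fold of 1.5 2478 and 2705, and a fold of 4 322 and 215. A whole interval beyond 2-fold left 739 higher genes. Of 142 named genes past 2-fold, 135 stayed past it under total reads and 142 under each other scaling and pseudocount, and 0 changed direction. Counting error alone is covered by the intervals, so differences between independent experiments and plants could not be assessed.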

Other observations

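In *sadr1-30.4*, 26 genes were at least 2-fold above both *ADR1-L2 DV* and Col-0, and 5 of them, picked after their values were seen, are given here. *VSP1*, a vegetative storage protein, had 43.3 scaled reads in *ADR1-L2 DV*, 131 in *sadr1-30.4*, 13.5 in Col-0 and 158 in *sadr1-26.6*, high in both suppressor lines. *BGLU18*, a beta-glucosidase of ER bodies, had 1081 scaled reads in *ADR1-L2 DV*, 6899 in *sadr1-30.4*, 1656 in Col-0 and 2324 in *sadr1-26.6*, and *MBP1*, a myrosinase-binding protein, 172 scaled reads in *ADR1-L2 DV*, 1148 in *sadr1-30.4*, 312 in Col-0 and 238 in *sadr1-26.6*, each at least 2-fold higher in *sadr1-30.4* than in any other genotype. *ST2A*, a sulfotransferase that acts on a jasmonate, had 59.5 scaled reads in *ADR1-L2 DV*, 164 in *sadr1-30.4*, 18.7 in Col-0 and 74.5 in *sadr1-26.6*. *LTP3*, a lipid-transfer protein, had 96.0 scaled reads in *ADR1-L2 DV*, 858 in *sadr1-30.4*, 127 in Col-0 and 303 in *sadr1-26.6*. In *sadr1-26.6*, 20 of the 26 genes were above Col-0, and 10 of them by at least 2-fold. The Col-0 reads that helped choose these genes enter this comparison as well, and no share over all measured genes was taken.

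In 59 measured genes *sadr1-30.4* was at least 2-fold below the lowest of the other genotypes, in 7 of them at least 4-fold, and in 13 genes it was at least 2-fold above the highest. *MAPR2* (AT2G24940), which encodes a membrane-associated progesterone-binding protein, stood farthest apart. It had 178 reads in *ADR1-L2 DV*, 2 in *sadr1-30.4*, 565 in Col-0 and 366 in *sadr1-26.6*, a log2 ratio of -5.63 (-9.25 to -4.32) to *ADR1-L2 DV*. It lies on chromosome 2, another chromosome than *SADR1*. *XTH10* had 178 scaled reads in *ADR1-L2 DV*, 11.4 in *sadr1-30.4*, 170.4 in Col-0 and 91.7 in *sadr1-26.6*, and *AT1G68620*, *KTI1*, *AT2G44240*, *AOX1D* and *UGT73D1* complete the 7. *ABCG40*, a transporter of abscisic acid, had 502 scaled reads in *ADR1-L2 DV*, 226 in *sadr1-30.4*, 2690.4 in Col-0 and 480.2 in *sadr1-26.6*, where Col-0 alone was high. Whether such single-line differences hold in each of the 3 samples could not be seen in pooled values.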
